A study of Mus musculus with 20 samples.

Results

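Lactate and pyruvate stand at a branch point of glucose use, and 10 genes that act there are described: Ldha, Ldhb, Slc16a1, Slc16a3, Pdk1, Pdk2, Pdk3, Pdha1, Mpc1 and Mpc2. They were chosen by name, without a threshold on any measured value, and all 10 had rows among the 24862 genes counted. RNA-seq counts came from 12 libraries of TH17 cells, the CD4+ T cells that make interleukin-17, of C57BL/6 mice, in 6 groups of 2 libraries. CNS and Ileum are GFP+ TH17 cells sorted straight from tissue, from cells infiltrating the central nervous system and from the ileum. Ad-c-Rel and Ad-control are TH17(β) cultures with c-Rel overexpression and their control. Both were grown from naive CD4+ T cells with TGF-β1 and IL-6. The miR-21-/- group and its Control are TH17(23) cultures grown with IL-23, IL-1β and IL-6 from mice lacking miR-21 and from control mice. All cultures also received antibodies against CD3, CD28, IL-4 and IFN-γ. The labels read here name neither the reporter behind the GFP, nor the age of the mice, nor the vector meant by Ad. They also do not say that replicates are separate animals or cultures, so the p-values cover only how these samples varied, and that variation may be technical. The title of the series links glycolysis in pathogenic TH17 cells to miR-21, Peli1 and c-Rel, and the 3 pairs of groups ask how the genes differ by tissue, with added c-Rel and without miR-21.

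Pyruvate is the end product of glycolysis. Lactate dehydrogenase turns it into lactate, which leaves or enters cells through the monocarboxylate transporters. Alternatively the mitochondrial pyruvate carrier brings it into mitochondria, where the pyruvate dehydrogenase complex makes acetyl-CoA from it, and pyruvate dehydrogenase kinases switch that complex off by phosphorylation. Activated T cells, TH17 cells among them, are known for making lactate even when oxygen is present.

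Promoter sequence is shown for Ldha and Slc16a3, the muscle-type lactate dehydrogenase and a lactate exporter. Both genes are known targets of HIF-1, the hypoxia factor, whose binding element has the core ACGTG. The 120 bases before 1 annotated start of each gene are printed 5′ to 3′ from RefSeq (GRCm38.p6, the build called mm10), with capitals on the letters ACGTG read on either strand. Ldha is on chr7:46845684-46845803 and Slc16a3 on chr11:120948947-120949066, both on the + strand. Ldha has a second annotated start, whose window holds no ACGTG.
Ldha: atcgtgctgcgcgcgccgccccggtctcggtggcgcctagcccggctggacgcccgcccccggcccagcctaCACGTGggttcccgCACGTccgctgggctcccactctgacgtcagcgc
Slc16a3: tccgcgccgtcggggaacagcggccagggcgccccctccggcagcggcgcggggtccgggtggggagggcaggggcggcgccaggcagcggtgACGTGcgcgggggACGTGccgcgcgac
Promoter windows from 250 bases before to 50 after a start were found for all 10 genes, 14 windows in all. ACGTG, on either strand, was in 5 of the 14, 1 window each of Ldha, Slc16a1, Slc16a3, Pdk2 and Pdk3, against 19.6% of all 32851 windows. Its longer form CACGTG, the E-box bound by Myc, holds ACGTG and was in 3 of the 14, 1 each of Ldha, Slc16a1 and Pdk2, against 7.15% of all. The letters of a particular form of the κB site, the kind of element bound by c-Rel, were in 0 of the 14 windows against 5.78% of all. Other forms of that site were not searched, so these windows may still hold some. All these counts are matches of letters and show no binding.

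The knockout removes miR-21, a microRNA that lowers its target transcripts by pairing to them through the seed, bases 2 to 8 from the 5′ end. The mature strand annotated at chr11:86584120-86584141 on the − strand is printed below, with the seed in capitals.
mmu-miR-21a-5p: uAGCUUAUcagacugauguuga
The counts of its precursor gene, Mir21a, were 0 and 0 in the miR-21-/- libraries and 25 and 20 in Control. Rel, which encodes c-Rel, was at 55.5 and 60.5 CPM (counts scaled to library size) in the Ad-c-Rel libraries and 9.97 and 6.73 CPM in Ad-control. Both checks went with the labels.

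Gene counts summed to 1.54e+07 to 1.99e+07 in the 8 libraries of the CNS, Ileum, Ad-c-Rel and Ad-control groups and to 3.28e+07 to 3.67e+07 in the 4 of the miR-21 pair. Replicates correlated less in the sorted cells (r = 0.927 in CNS and 0.917 in Ileum, over log values of all tested genes) than in the cultures (0.989 to 0.996). The second library of each tissue detected fewer genes than the first, despite a larger sum of counts. For CNS the number of genes with counts fell from 14224 to 11545, and for Ileum from 13927 to 10771. Culture libraries detected 14183 to 16684 genes. What this shared drop does to the tissue calls was not tested. Every library held the T cell identity markers, at a summed level of 3658 to 8001 CPM. The sorted libraries also held markers of other cells. Myeloid and microglia markers, 18 genes, summed to 29561 to 31826 CPM in CNS, where Apoe at 11352 CPM and Lyz2 at 5544 CPM were the most abundant. Their sum was 5807 to 5914 CPM in Ileum and 27.1 to 55.6 CPM in the cultures, where the complement genes C1qa, C1qb and C1qc were at 0 in both groups of the c-Rel pair. B and plasma cell markers summed to 4450 to 4936 CPM in Ileum and 328 to 334 CPM in CNS, and neutrophil markers to 221 to 230 CPM in CNS and at most 0.944 CPM in Ileum. TH17 markers summed to 783 to 888 CPM in CNS and 12711 to 12849 CPM in Ileum.

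**Figure D1:**
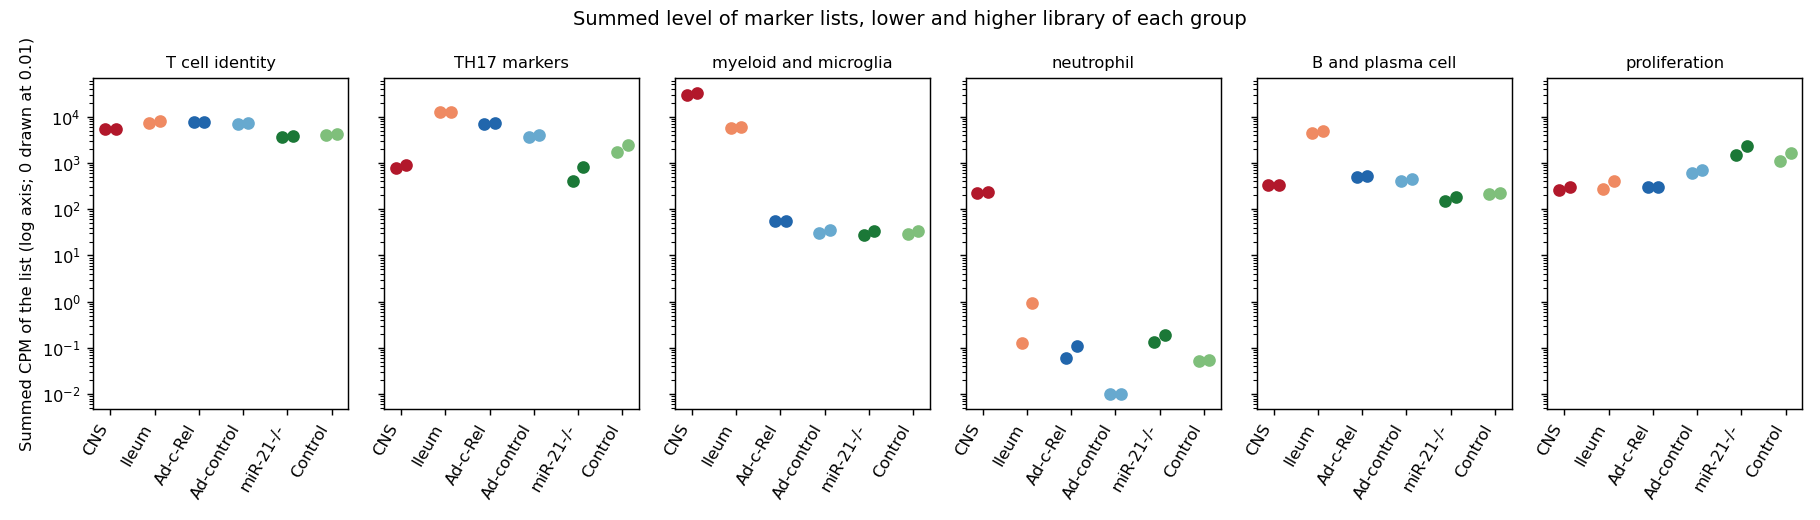
Summed level of each marker list (CPM, log axis), with 2 points per group for its lower and its higher library and sums of 0 drawn at the bottom of the axis. Myeloid and microglia markers stand highest in CNS, at 29561 to 31826 CPM, and lie between 27.1 and 55.6 CPM in the cultures.

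Levels are given as CPM after TMM scaling over all 12 libraries, replicate 1 before replicate 2. They were compared between libraries for each gene, and not between genes, because no transcript length was at hand. Groups of different pairs differ in cell source or culture, and the miR-21 pair also in depth. The sorted cells and the miR-21 pair differ in library kit as well, and the kit of the Ad libraries is not clearly named. The order of groups is therefore a description without a test, in which kit and cells cannot be told apart.

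The lactate dehydrogenases had unlike profiles. Ldha, on chr7:46842274-46855627, encodes the subunit that favours making lactate. Its level was 1710 and 1426 CPM in CNS, 1335 and 1186 CPM in Ileum, 3931 and 3740 CPM in Ad-c-Rel, 3989 and 3864 CPM in Ad-control, 2266 and 2674 CPM in miR-21-/- and 2962 and 3322 CPM in Control. Both libraries of every culture stood above all 4 sorted libraries, and the highest group mean was 3.11 times the lowest. Ad-control and Ad-c-Rel overlapped at the top of the order. Ldhb, on chr6:142490249-142507957, encodes the subunit that favours the use of lactate. It was at 173 and 183 CPM in CNS, 9.30 and 12.2 CPM in Ileum, 60.7 and 62.8 CPM in Ad-c-Rel, 56.4 and 66.4 CPM in Ad-control, 41.2 and 31.4 CPM in miR-21-/- and 29.2 and 27.0 CPM in Control. CNS stood above every other group and Ileum below every other, a 16.6-fold range of group means. The Ad groups overlapped, and the means of miR-21-/- and Control lay within the sum of their SDs.

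Both monocarboxylate transporters carry lactate across the plasma membrane, and Slc16a3, also called MCT4, is known as the exporter of strongly glycolytic cells. Slc16a3, on chr11:120948484-120959000, was at 118 and 171 CPM in CNS, 36.4 and 23.6 CPM in Ileum, 475 and 426 CPM in Ad-c-Rel, 372 and 358 CPM in Ad-control, 254 and 314 CPM in miR-21-/- and 417 and 482 CPM in Control. Its order followed that of Ldha at the lower end, with Ileum lowest and CNS next, and spanned 15.0-fold. The 2 highest groups, Ad-c-Rel and Control, overlapped, and which of them led depended on the library scaling. Slc16a1, or MCT1, on chr3:104638664-104658462, was at 67.9 and 54.5 CPM in CNS, 154 and 109.6 CPM in Ileum, 99.9 and 105 CPM in Ad-c-Rel, 76.5 and 84.8 CPM in Ad-control, 70.1 and 66.7 CPM in miR-21-/- and 93.4 and 88.6 CPM in Control. Here Ileum came first and CNS last, with a range of 2.15-fold. Ileum and Ad-c-Rel lay within the sum of their SDs, and miR-21-/- and CNS overlapped.

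Pyruvate dehydrogenase kinases had 3 different profiles. Pdk1, on chr2:71873215-71903858, is a known HIF-1 target. It was at 80.9 and 52.7 CPM in CNS, 22.7 and 14.3 CPM in Ileum, 241 and 241 CPM in Ad-c-Rel, 259.7 and 278 CPM in Ad-control, 171 and 185 CPM in miR-21-/- and 233 and 269 CPM in Control. All culture libraries stood above all sorted ones, with Ileum lowest and a range of 14.5-fold. Ad-control, Control and Ad-c-Rel overlapped in turn. Pdk2, on chr11:95026258-95041371, was at 15.9 and 5.83 CPM in CNS, 4.50 and 11.9 CPM in Ileum, 41.7 and 42.0 CPM in Ad-c-Rel, 56.7 and 60.3 CPM in Ad-control, 7.85 and 9.76 CPM in miR-21-/- and 4.08 and 5.47 CPM in Control. The TH17(β) cultures were high and the other 4 groups low, a range of 12.3-fold. Replicates of the sorted groups differed more than their means did, and the neighbours among the 4 low groups overlapped. Pdk3, on chrX:93764616-93832150, was at 58.3 and 104 CPM in CNS, 62.3 and 62.5 CPM in Ileum, 131 and 131 CPM in Ad-c-Rel, 111 and 113 CPM in Ad-control, 64.7 and 77.3 CPM in miR-21-/- and 79.6 and 87.6 CPM in Control. Its group means spanned 2.1-fold, and the CNS libraries lay on either side of all Ileum, miR-21-/- and Control libraries. Pdk4, a further kinase of the complex, had 0 to 18 counts per library.

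Pdha1, on chrX:160122219-160138430, encodes the subunit that these kinases phosphorylate. Its level was 78.0 and 53.5 CPM in CNS, 119 and 72.7 CPM in Ileum, 129.9 and 139 CPM in Ad-c-Rel, 140.4 and 149 CPM in Ad-control, 133 and 142 CPM in miR-21-/- and 121 and 109 CPM in Control. The range was 2.20-fold, with CNS lowest, and CNS and Ileum overlapped. The mitochondrial pyruvate carrier is made of the products of Mpc1 and Mpc2. Mpc1, on chr17:8283787-8297667, was at 70.1 and 85.6 CPM in CNS, 93.1 and 92.6 CPM in Ileum, 121 and 129.7 CPM in Ad-c-Rel, 85.9 and 94.9 CPM in Ad-control, 21.7 and 19.5 CPM in miR-21-/- and 21.1 and 20.5 CPM in Control. Mpc2, on chr1:165461260-165481218, was at 52.9 and 58.5 CPM in CNS, 63.4 and 74.2 CPM in Ileum, 32.0 and 36.3 CPM in Ad-c-Rel, 36.8 and 35.7 CPM in Ad-control, 13.8 and 13.4 CPM in miR-21-/- and 13.5 and 12.2 CPM in Control. Both carrier genes were lowest in the 4 libraries of the miR-21 pair, whose groups overlapped, with ranges of 6.07-fold for Mpc1 and 5.35-fold for Mpc2. Mpc2 was highest in the sorted cells and Mpc1 in Ad-c-Rel.

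**Figure D2:**
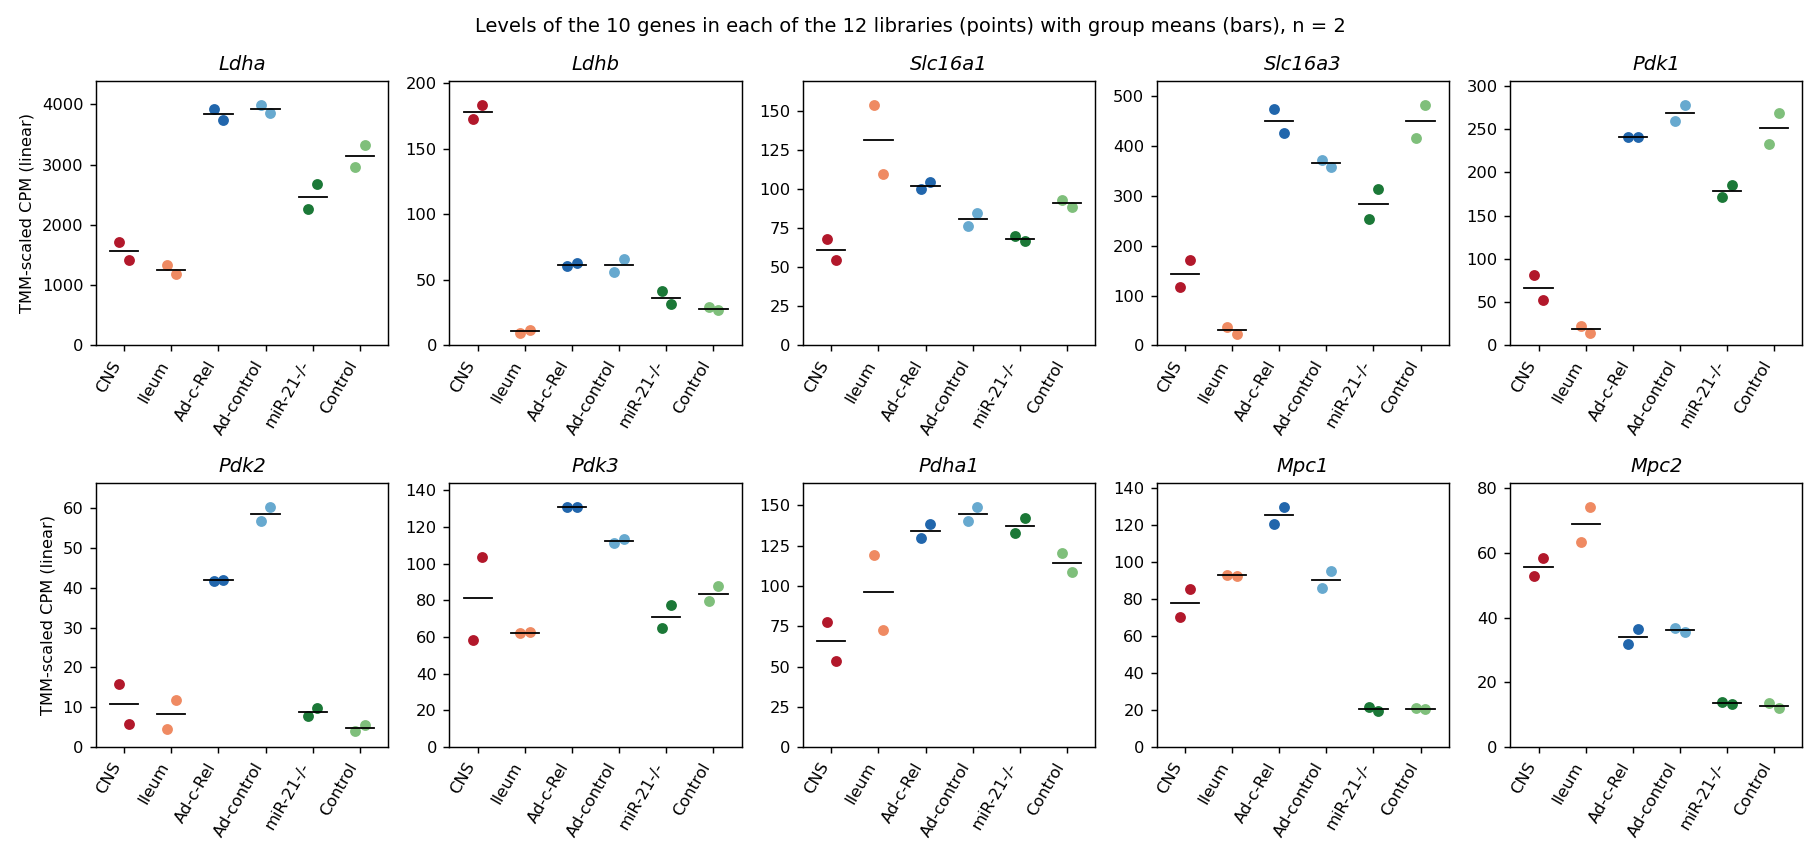
TMM-scaled level of each gene (CPM, linear axes from 0) in each of the 12 libraries, with a bar at each group mean. Ldhb is highest in CNS at 173 and 183 CPM, whereas the cultures stand above the sorted cells for Ldha, Slc16a3 and Pdk1.

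Between the tissues, Ldhb and the lactate exporter Slc16a3 were higher in CNS. Ldhb was 16.7-fold higher (log2 fold change 4.06, SE 0.290). Its adjusted p was 0.00190 by edgeR's quasi-likelihood test with Benjamini-Hochberg adjustment, for which the threshold was 0.05. Slc16a3 was 4.90-fold higher (2.29, SE 0.351, adjusted p = 0.0180). For both genes each CNS library stood above each Ileum library, and the call held without any 1 of the 4 libraries (adjusted p at most 0.00295 for Ldhb and 0.0443 for Slc16a3). Thus 2 of the 10 genes were called higher and 0 lower, where 9.66% of the 12038 genes tested were called in either direction, 482 higher and 681 lower (643 and 512 for all genes with total counts only).

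Pdk1 missed the threshold by little, with a log2 fold change of 1.87 (SE 0.408, adjusted p = 0.0506), and the other MCT gene, Slc16a1, pointed down at −1.09 (SE 0.263, adjusted p = 0.0648). DESeq2 called both (adjusted p = 0.000533 for Pdk1 and 0.00275 for Slc16a1). So did edgeR with no filter (0.000566 and 0.00362), in one fit over 12 libraries (0.000750 and 0.00220) and with a replicate block (0.0342 and 0.0471). With RLE scaling (0.0404 and 0.0547) and with total counts only (0.0352 and 0.108) edgeR called Pdk1 and not Slc16a1. Ldha was at 0.33 (SE 0.121, adjusted p = 0.177), with no overlap of libraries, and DESeq2 called it too (adjusted p = 0.0162). By DESeq2, then, 4 of the 10 genes were higher in CNS and 1 lower, where DESeq2 called 20.6% of the 12339 genes to which it gave an adjusted p. The carrier and dehydrogenase genes had values of −0.23 for Mpc1, −0.29 for Mpc2 and −0.53 for Pdha1 (adjusted p 0.425 to 0.653). Pdk2 at 0.39 (adjusted p = 0.873) and Pdk3 at 0.40 (adjusted p = 0.590) changed sign when 1 library was left out. Without CNS replicate 1 the value of Pdk2 was −0.50, and without Ileum replicate 1 it was −0.16. Pdk3 was at −0.16 without CNS replicate 2. The libraries of 7 of the 10 genes did not overlap between the tissues, beside 59.5% of all genes tested. Unadjusted p was under 0.05 for 5 of the 10, beside 24.4%. The 10 genes had a median log2 fold change of 0.36, beside 0.08 over all genes tested.

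Markers of myeloid cells moved with tissue in the same libraries: 17 of 18 were called higher in CNS, with a median log2 fold change of 2.58, while 6 of 8 TH17 markers and 4 of 12 T cell identity genes were called lower. In such bulk samples, fewer cells of a type and less RNA per cell cannot be told apart. With each library scaled to its T cell identity genes, the median over all tested genes shifted by 0.46, and 968 genes were called higher and 382 lower. The log2 fold changes then were 4.51 for Ldhb, 2.75 for Slc16a3, 2.33 for Pdk1, −0.63 for Slc16a1, 0.22 for Mpc1 and 0.16 for Mpc2. This scaling changes only a factor per library. Subtracting the shift therefore gives back nearly the TMM values by construction, and is no check on the mix of cells. Scaled in this way, 4 of the 10 genes were called higher, beside 11.2% of all genes called in either direction, Ldha (adjusted p = 0.0174) and Pdk1 (adjusted p = 0.0215) with the first 2. The part of the myeloid markers in these differences was not tested. Pdk3 and Pdha1 are X-linked, and the tissues also differed in Xist, the RNA of the inactive X chromosome, at 0.0842 CPM in CNS and 438 CPM in Ileum. The mice of the tissue groups may thus differ in sex. Sex and tissue could then not be told apart for any of the 10 genes, and this was not tested.

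With c-Rel overexpression in TH17(β) cells, 3 of the 10 genes rose and 1 fell, by small amounts. Mpc1 rose by 0.48 on the log2 scale (39.3%, SE 0.0815; edgeR adjusted p = 0.000922). The transporters rose too, Slc16a1 by 0.35 (SE 0.0819, adjusted p = 0.00930) and Slc16a3 by 0.31 (SE 0.0786, adjusted p = 0.0148). Pdk2 fell by 0.47 on the log2 scale (SE 0.0891, adjusted p = 0.00213). In these 4 genes both Ad-c-Rel libraries stood on the same side of both Ad-control libraries. Over all 11711 genes tested, 14.3% were called in either direction, 956 higher and 717 lower (669 and 1027 for all genes with total counts only). Unadjusted p was under 0.05 for 5 of the 10 genes, beside 28.6% of all.

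Mpc1 and Pdk2 kept their calls without any 1 of the 4 libraries. The Slc16a1 call ended without Ad-c-Rel replicate 2 (adjusted p = 0.0877) or Ad-control replicate 1 (adjusted p = 0.0687). The Slc16a3 call ended without Ad-c-Rel replicate 1 (adjusted p = 0.214) or Ad-control replicate 2 (adjusted p = 0.0620). In one fit over all 12 libraries, whose spread also takes in the sorted cells, 0 of the 4 genes passed by edgeR (adjusted p 0.675 for Mpc1), and that fit called 18 genes higher and 1 lower in all (0.138%).

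The dehydrogenases stayed close together in this pair. Ldha had a log2 fold change of −0.02 (SE 0.0754, adjusted p = 0.875) and Ldhb one of 0.02 (adjusted p = 0.934), and the sign of each turned when 1 library was left out. Pdk1 at −0.15 (adjusted p = 0.197), Pdha1 at −0.10 (adjusted p = 0.431) and Mpc2 at −0.08 (adjusted p = 0.671) were not called, and Pdk3 at 0.23 (adjusted p = 0.0519) missed the threshold narrowly. The libraries of 7 genes did not overlap, beside 56.2% of all genes tested, and the median over the 10 genes was −0.0035, beside −0.0063 over all. All 8 proliferation markers were called lower with Ad-c-Rel, their sum being 299 to 305 CPM against 620 to 688 CPM, and TH17 markers summed to 7105 to 7160 CPM against 3695 to 4096 CPM. Their part in the 4 calls was not tested.

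Without miR-21, 0 of the 10 genes passed the threshold in the edgeR fit with no replicate block, and neither did any of the 13428 genes tested (0%). Same-numbered libraries of this pair deviated together (r = 0.66), though the labels do not say what a replicate number marks. With a replicate block edgeR called 2 of the 10 genes higher and 4 lower, beside 2287 higher and 2520 lower of all 13428. The edgeR values that follow are from the fit with no block. Unadjusted p was under 0.05 for 4 of the 10 genes, beside 21.0% of all genes tested. Slc16a3 had a log2 fold change of −0.68 (SE 0.178, adjusted p = 0.151), Pdk1 of −0.51 (SE 0.145, adjusted p = 0.161) and Slc16a1 of −0.43 (SE 0.117, adjusted p = 0.157). Pdk2 had a positive value of 0.86 (SE 0.267, adjusted p = 0.172) at levels of 4.08 to 9.76 CPM. For these 4 genes the miR-21-/- libraries lay wholly on one side of the Control libraries. DESeq2 called Slc16a3 lower (adjusted p = 0.0366) and none of the other 9 genes, beside 6.42% of the 12345 genes to which it gave an adjusted p.

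Ldha stood at −0.36 (SE 0.211, adjusted p = 0.360) and Ldhb at 0.35 (SE 0.167, adjusted p = 0.291), with no overlap of libraries in either. Pdk3 was at −0.25 (adjusted p = 0.360) and Pdha1 at 0.25 (adjusted p = 0.334), and their libraries did not overlap. The carrier genes showed the smallest values, −0.03 for Mpc1 (adjusted p = 0.923) and 0.06 for Mpc2 (adjusted p = 0.853). In all, 8 of the 10 genes had no overlap between the groups, beside 56.3% of all genes tested, and their median was −0.14, beside −0.02 over all. TH17 markers summed to 412 to 815 CPM in miR-21-/- and 1727 to 2386 CPM in Control. By edgeR 0 of 8 was called in this fit, which called no gene, with 5 of the 8 at an unadjusted p under 0.05. The part of that difference in the values above was not tested.

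**Figure D3:**
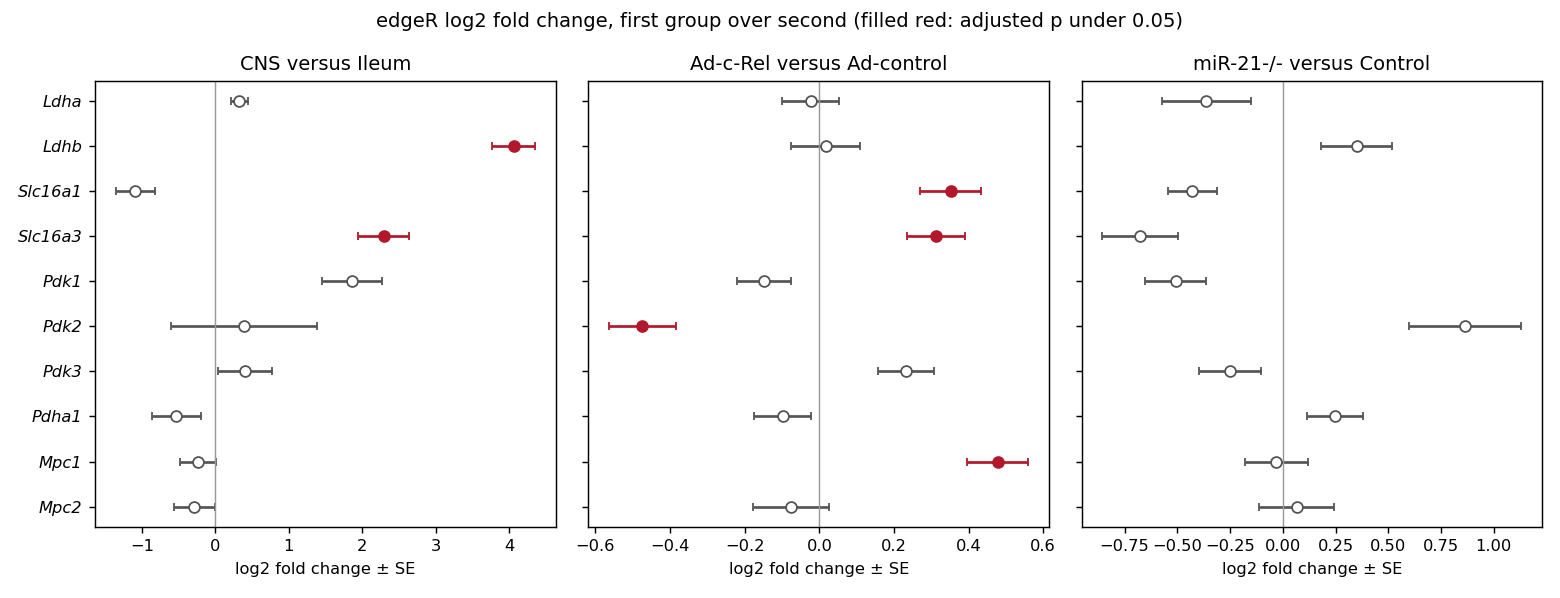
Log2 fold change of the first group over the second (points) with its SE (bars) for the 10 genes in each pair, on separate axes, filled where adjusted p was under 0.05. The calls are Ldhb and Slc16a3 in CNS versus Ileum and Slc16a1, Slc16a3, Pdk2 and Mpc1 with Ad-c-Rel. These fits have no replicate block, and in them no gene passed without miR-21.

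Whether an effect differed between pairs was tested with interaction contrasts in one edgeR fit over the 12 libraries; the 3 pairs share no library. The tissue difference exceeded the c-Rel effect for Ldhb by 4.04 (log2, adjusted p = 6.02e-05), for Pdk1 by 2.01 (adjusted p = 0.00448) and for Slc16a3 by 1.96 (adjusted p = 0.00435). Slc16a1 went the other way, with a difference of −1.45 (adjusted p = 0.00549). Mpc1 at −0.72 (adjusted p = 0.0429) was the last of the 5 genes that passed, beside 16.6% of the 13815 genes tested. Its call was lost without any 1 of 10 of the 12 libraries, with RLE scaling (adjusted p = 0.0603) and with no filter (0.106). Against the miR-21 effect the tissue difference was larger for Ldhb by 3.68 (adjusted p = 0.000119), for Slc16a3 by 2.93 (adjusted p = 0.000678) and for Pdk1 by 2.34 (adjusted p = 0.00208). Ldha at 0.66 (adjusted p = 0.0382) also passed, but lost its call without any 1 of 9 of the 12 libraries. These 4 stood beside 18.8% of all genes. Between the c-Rel and miR-21 effects 0 of the 10 genes passed by edgeR, beside 0.224% of all genes. The spread of this fit takes in the sorted cells, and in it 0 of the 10 genes were called for the c-Rel effect itself. The result therefore does not show that the c-Rel and miR-21 effects are alike. The differences for Slc16a3 of 0.96 and for Slc16a1 of 0.75 both had an unadjusted p of 0.016 and an adjusted p of 0.395.

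Shares of counts between partner genes do not depend on library scaling. A share counts reads and not molecules per length, so it is read across libraries and not as an excess of one partner. Between pairs, cell source and kit cannot be told apart for shares either. With 2 libraries a group the exact two-sided permutation test cannot go below p = 0.333, so no difference of shares can pass 0.05. Ldha took 90.8% (95% exact binomial interval 90.5 to 91.1) and 88.6% (88.2 to 88.9) of Ldha plus Ldhb counts in CNS, against 99.3% and 99.0% in Ileum. The difference of the means, CNS minus Ileum, was −9.43 points, and its exact permutation p of 0.333 is the smallest possible. In the cultures Ldha took 98.2% to 99.2% in every library. The CNS libraries were the lowest of the 12. Intervals cover counting error only, since PCR copies carried no molecular identifiers.

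Slc16a3 took 63.4% and 75.8% of Slc16a3 plus Slc16a1 counts in CNS but 19.1% and 17.7% in Ileum, a gap of 51.2 points between the means. In the cultures it took 78.4% to 84.5%, with Ad-c-Rel at 81.4% ± 1.68 (SD, n = 2) beside Ad-control at 81.9% ± 1.47, and both transporters were called higher together in that pair. Among the kinases, Pdk1 held 52.1% and 32.5% of the counts of Pdk1, Pdk2 and Pdk3 in CNS and 25.4% and 16.1% in Ileum, where Pdk3 held 69.6% and 70.4%. In the TH17(β) cultures Pdk1 held 58.2% to 61.5% and in the miR-21 pair 68.0% to 74.3%. The Pdk2 share was lower with Ad-c-Rel (10.1% and 10.2%) than in Ad-control (13.3% and 13.4%), and the Pdk3 share higher (31.7% and 31.6% against 26.0% and 25.1%). In the miR-21 pair the Pdk2 share was 3.22% and 3.58% without miR-21 and 1.29% and 1.51% in Control. Mpc1 took 79.0% and 78.1% of Mpc1 plus Mpc2 counts with Ad-c-Rel, 70.0% and 72.7% in Ad-control, and 55.5% to 62.8% in the other 8 libraries.

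**Figure D4:**
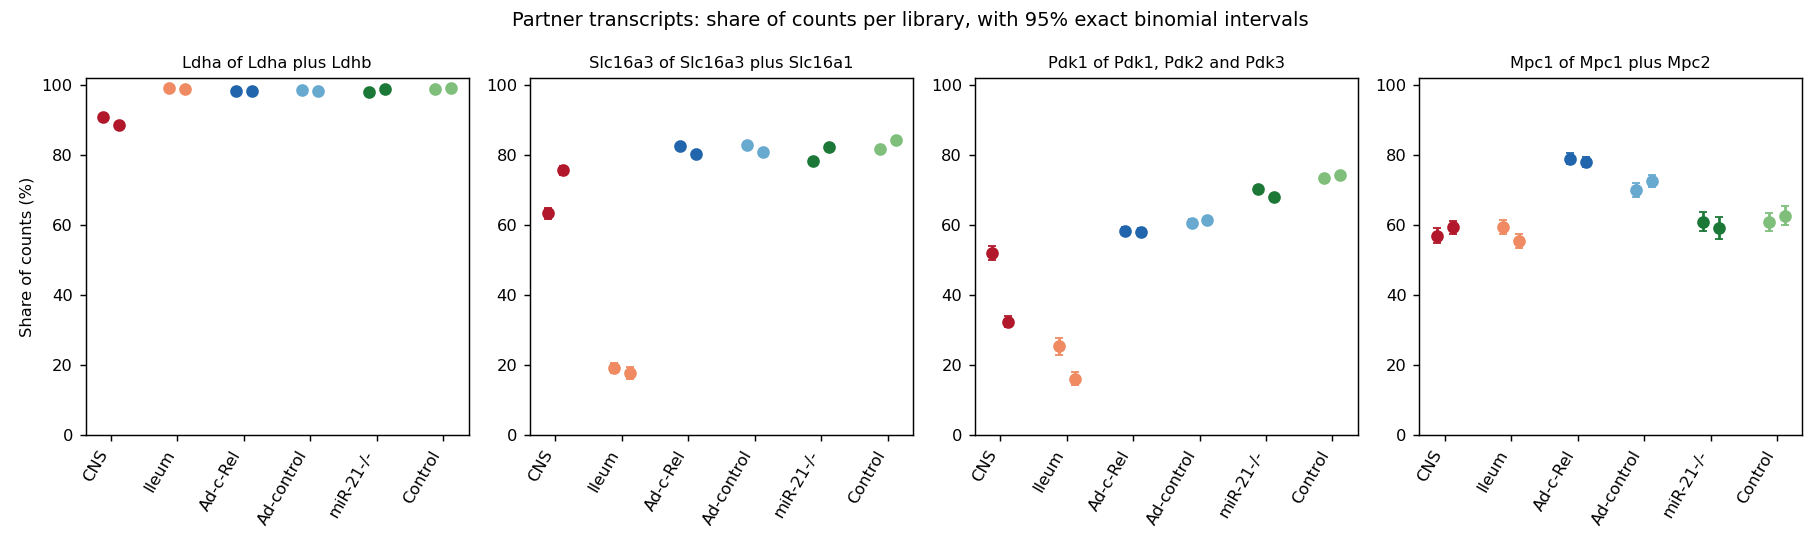
Share of counts (%, axis from 0) that 1 gene takes among its partners in each library, with 95% exact binomial intervals. Slc16a3 takes 19.1% and 17.7% in Ileum and 63.4% to 84.5% in all other libraries, and Ldha falls below 91% in both CNS libraries.

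The wider pathway was described from a list of 24 further pyruvate and lactate genes, of which 23 had rows and 14 or 15 were tested in each pair. In CNS versus Ileum 0 of 14 were called higher and 2 lower, beside 9.66% of all genes called, with a median log2 fold change of −0.34 beside 0.08 over all genes. Emb, which encodes embigin, a partner that escorts monocarboxylate transporters to the membrane, was at 781 and 735 CPM in CNS and 4062 and 3852 CPM in Ileum (−2.37, SE 0.0954; edgeR adjusted p = 0.000483). Dld, a subunit of the pyruvate dehydrogenase complex, was at 72.8 and 83.4 CPM against 158 and 189 CPM (−1.13, SE 0.229, adjusted p = 0.0405). Its call ended without either CNS library, without Ileum replicate 2 (adjusted p 0.0539 to 0.129), with total counts only (adjusted p = 0.0711), or with the T cell scaling (adjusted p = 0.139). Basigin, the other escort of these transporters, has the gene Bsg. Bsg had a value of 0.73 and missed the threshold (adjusted p = 0.0557), but passed it by DESeq2 (adjusted p = 0.00323), with no filter (0.00339), in the fit over 12 libraries (0.00257), with total counts only (0.0296) and with the T cell scaling (0.0139). With Ad-c-Rel 1 of 14 rose and 1 fell, beside 14.3% of all genes, and the median was 0.04. Bsg rose by 0.28 (SE 0.0745, adjusted p = 0.0197), from 2175 and 2356 CPM to 2741 and 2728 CPM. That call ended without either Ad-c-Rel library or Ad-control replicate 1 (adjusted p 0.0535 to 0.121). Pcx, which encodes pyruvate carboxylase, fell by 0.43 (SE 0.101, adjusted p = 0.00917), from 60.8 and 57.6 CPM to 47.2 and 39.7 CPM. Its call ended without Ad-c-Rel replicate 2 (adjusted p = 0.133) or Ad-control replicate 1 (adjusted p = 0.0787). Neither gene passed in the fit over 12 libraries (adjusted p = 1 for both). In the miR-21 pair 0 of 15 was called by edgeR, 2 had an unadjusted p under 0.05 beside 21.0% of all genes, and the median was 0.02. Those 2, named after their values were seen, were Pcx at −1.09 (adjusted p = 0.107) and Me2, a malic enzyme, at −1.04 (adjusted p = 0.117). DESeq2 called both lower (adjusted p = 2.51e-05 and 0.000164), and so did edgeR with a replicate block (6.58e-06 and 6.42e-06).

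**Figure D5:**
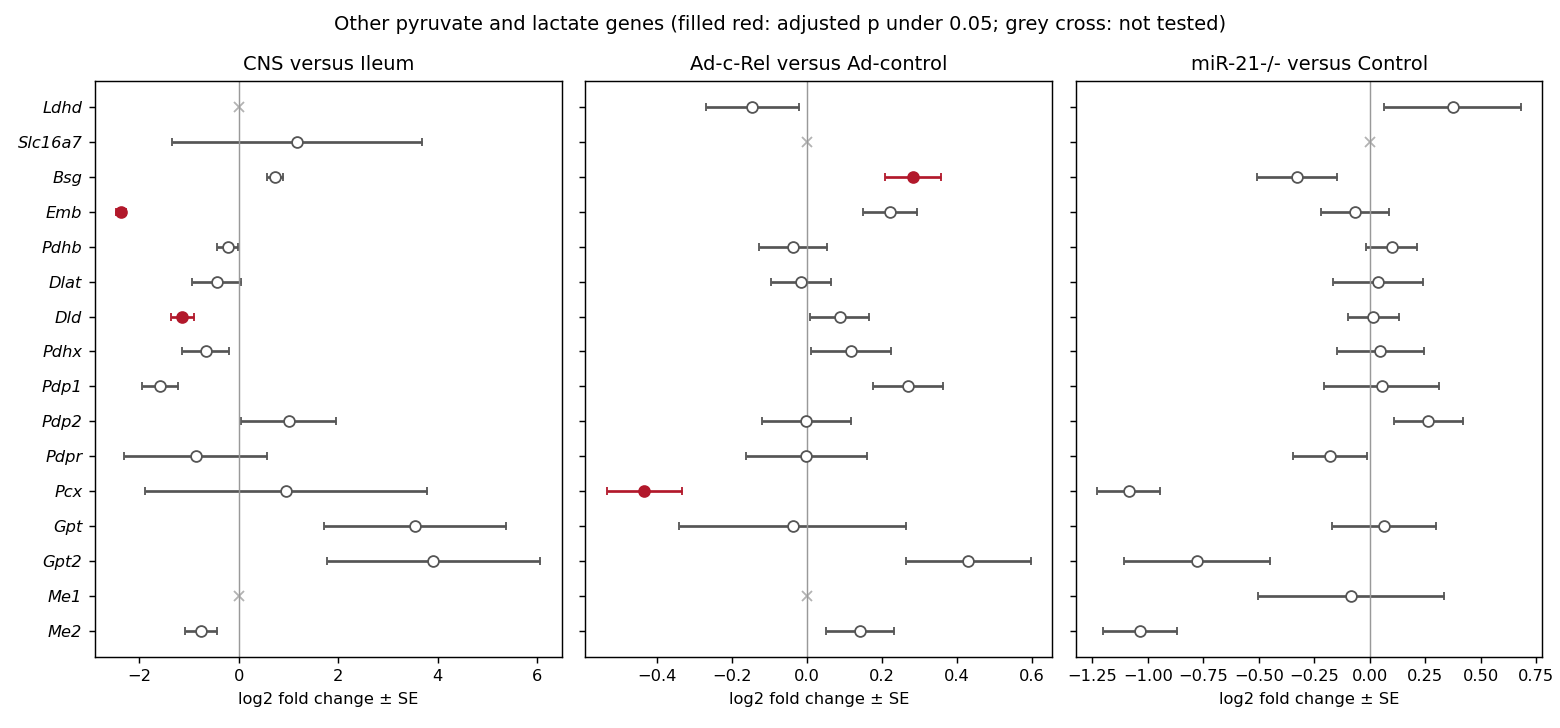
Log2 fold change (points) with SE (bars) of the other pyruvate and lactate genes tested in at least 1 pair, on separate axes, filled where adjusted p was under 0.05 and crossed where not tested. Emb and Dld are called lower in CNS, and Bsg higher and Pcx lower with Ad-c-Rel.

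Transcripts of Hif1a, Myc and Rel, from a list of 11 regulator genes, were read beside these genes. Whether Rel regulates these genes was not tested. In each pair 10 of the list were tested. By edgeR 0 were called higher and 5 lower in CNS (median log2 fold change −1.40), beside 9.66% of all genes. With Ad-c-Rel 2 were called higher, Rel among them, and 0 lower (median 0.20), beside 14.3%. Without miR-21, 0 were called (median 0.03), beside 0%. Hif1a, the oxygen-regulated subunit of HIF-1, was lower in CNS (−0.94 on the log2 scale; edgeR adjusted p = 0.0278), where Slc16a3 was higher. With the T cell scaling Hif1a missed the threshold (−0.47, adjusted p = 0.119). Hif1a was not called with Ad-c-Rel (0.20, adjusted p = 0.0904) or without miR-21 (−0.37, adjusted p = 0.306). With a replicate block edgeR called it higher in the first (adjusted p = 0.00904) and lower in the second (0.0486). HIF-1 is regulated mainly through the stability of its protein, which these counts do not measure. Myc was at −1.37 (adjusted p = 0.0837), 0.20 (adjusted p = 0.0779) and −0.51 (adjusted p = 0.562) in the order above. In CNS it was called lower by DESeq2 (adjusted p = 0.00628), with no filter (9.33e-06) and without CNS replicate 2 (−2.01, adjusted p = 0.00693). In the miR-21 pair it was called lower without miR-21-/- replicate 1 (−1.43, adjusted p = 0.0300). Rel was lower in CNS (−1.79, adjusted p = 0.00810), 7.07-fold higher with Ad-c-Rel (2.82, adjusted p = 6.91e-09) and at 0.60 without miR-21 (adjusted p = 0.161), where it was called without miR-21-/- replicate 1 (0.76, adjusted p = 0.0400).

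Likeness of pattern was measured as Pearson's r of log2(CPM + 1) over the 12 libraries after subtracting each pair's mean, among the 9840 genes whose mean reached 5 CPM, leaving out clone-named genes and immunoglobulin and T cell receptor segments. It is a description: the points share libraries, and the tissue pair has the largest spread. Among the 10 genes, Slc16a3 and Pdk1 were most alike (r = 0.90), followed by Ldhb with Slc16a3 (0.87) and Ldhb with Pdk1 (0.86), and Ldha with Pdk1 reached 0.81. The opposite pattern was found between Ldhb and Slc16a1 (−0.88) and between Pdk1 and Mpc2 (−0.86). The 5 other genes most like Ldhb, all at r = 0.99, were Ctsc, Ctss, C1qa, Hp and C1qc, of which C1qa and C1qc are on the myeloid marker list. Nearest to Slc16a3 were Kctd11, Ppib, Adarb1, Naip2 and Ndufb3 (r = 0.98 to 0.99). Nearest to Pdk1 were Arhgap30, Grhpr, Tcf4, Klrc1 and Glb1 (0.98 to 0.99), and nearest to Ldha were Il10ra, Adam9, Spg21, Hmox1 and Swap70 (0.91 to 0.92). Without subtracting pair means, 0 of the 5 genes remained on each of these 4 lists.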

How the data were processed

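The deposited files hold raw counts per gene symbol for 12 RNA-seq libraries, counted by the authors. Tools in the submitters' processing notes, listed without role or order, are TopHat2 2.1.0, HTSeq 0.11.0, Trim Galore 0.4.4, CASAVA 1.4, DESeq2, HOMER, SAMtools and Bowtie2, and the genome build there is mm10. Annotation and counting strand: not given in the sources used here. Per the labels' protocols, sorted cells used SMART-Seq v4 and the miR-21 cultures a TruSeq Stranded Total RNA kit. The labels do not clearly name a kit for the Ad libraries. The 8 ATAC samples were not analysed here.

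Lines naming no gene held 14.7% to 26.1% of each table and stayed out. Multiply aligned reads were listed at 0 in the miR-21 pair and at 2.25% to 3.52% elsewhere. Near-identical copies could therefore be counted differently, but Ldhal6b, Ldhc and Pdha2 had at most 27 counts in any library.

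Each pair was fitted on its own 4 libraries in R 4.3.3 with edgeR 4.0.16 (filterByExpr, TMM, two-sided quasi-likelihood F test, adjustment after Benjamini and Hochberg over every tested gene, threshold 0.05). All 10 genes passed the filter in each pair. SE was derived as the size of the log2 fold change divided by √F, so it restates that test. Groups of 2 leave 2 residual degrees of freedom. Alternatives were DESeq2 1.42.0, other scalings, no filter, one fit over 12 libraries, a replicate block and leaving out each library. The fitting was tested on data simulated with the same spread for every gene and pair and no effect of replicate number. That test does not cover the wider spread of the sorted cells or the linked replicate numbers of the miR-21 pair. Sequences, coordinates and names are from RefSeq tables of GRCm38.p6, where all 10 genes matched. The genes, lists and naming rule (all 10 genes, called genes of the pathway list, Hif1a, Myc, Rel, Mir21a, and the 5 genes most alike) were chosen with earlier results of these data known. No chance test over the list was made.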

Additional observations from a re-analysis of the deposited data

How the results depend on the processing

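With 2 libraries a group, leaving 1 out assumes that the lone library varies like the other group. The lowest count of the 10 genes in any library was 62, for Pdk2, and the effect of depth was not tested. For CNS versus Ileum, the count of the 10 genes called higher, 2 as reported, was 4 with DESeq2 and 4 when scaled to T cell identity genes. It was 3 with RLE scaling, with total counts only, with no filter, in one fit over 12 libraries and with the replicate block. The count called lower, 0 as reported, was 1 with DESeq2, with no filter, in one fit over 12 libraries and with the replicate block. For Ad-c-Rel versus Ad-control the one fit over 12 libraries gave 0 higher and 0 lower, against 3 and 1. There 4 were called higher with RLE scaling and with the replicate block. Over all genes of that pair, RLE scaling called 957 higher and 688 lower, and the replicate block 1488 and 1314. For miR-21-/- versus Control the count called lower was 1 with DESeq2 and 4 with the replicate block, which also called 2 higher. The cause of these changes was not tested.

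The labels do not say that a replicate number marks a shared animal or day. Deviations of same-numbered libraries correlated at 0.079 in CNS and Ileum, 0.11 in the Ad pair and 0.66 in the miR-21 pair. With the replicate block, edgeR called 2 of the 10 genes higher in the miR-21 pair, Ldhb (adjusted p = 0.0226) and Pdk2 (0.00238). It called 4 lower, Slc16a3 (0.000305), Pdk1 (0.00132), Slc16a1 (0.00231) and Pdk3 (0.0424). Of all 13428 genes tested there it called 2287 higher and 2520 lower. In the Ad pair it called 1488 higher and 1314 lower of 11711, Pdk3 among those higher (adjusted p = 0.00893). In CNS it called Slc16a1 lower (adjusted p = 0.0471) and Pdk1 (0.0342) and Bsg (0.0360) higher. It called Myc in all 3 pairs (adjusted p = 0.0441, 0.0149 and 0.00303), Hif1a in the Ad pair (0.00904) and the miR-21 pair (0.0486), and Rel in the miR-21 pair (0.000287).

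Signs turned for uncalled genes. Scaled to T cell identity genes, Mpc1 and Mpc2 were at 0.22 and 0.16 in CNS versus Ileum, but at −0.24 and −0.30 relative to the shift of 0.46 in the median of all genes. With total counts only, Ldhb was at −0.0404 in the Ad pair and Mpc2 at −0.00038 in the miR-21 pair, and relative to the shift at 0.0173 and 0.064. Values relative to a shift repeat nearly those with TMM by construction, so they test nothing further. Leaving out 1 library moved the tissue difference of Pdk2 between −0.50 and 1.30 and of Pdk3 between −0.16 and 0.75. In the Ad pair it moved Ldha between −0.0639 and 0.00957, Ldhb between −0.0844 and 0.128, and Mpc2 between −0.175 and 0.0102. In the miR-21 pair it moved Mpc1 between −0.0888 and 0.0570 and Myc between −1.43 and 0.0717. The tissue effect minus the c-Rel effect ranged from −0.0082 to 1.76 for Pdk2 and from −0.32 to 0.52 for Pdk3, and the tissue effect minus the miR-21 effect from −1.38 to 0.39 for Pdk2.

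Over all tested genes, leaving out 1 library gave 319 (without CNS replicate 2) to 1285 (without Ileum replicate 1) higher and 531 to 724 lower in CNS. It gave 537 to 784 higher and 389 to 597 lower with Ad-c-Rel, the lowest without Ad-c-Rel replicate 2 and nearly as low without Ad-control replicate 1 (541 and 394). In the miR-21 pair it gave 1 to 666 higher and 1 to 661 lower, the highest without miR-21-/- replicate 1. DESeq2 called 1211 and 1331 in the tissue pair, 637 and 435 in the Ad pair and 325 and 468 in the miR-21 pair. With no filter edgeR called 1113 higher and 1300 lower in the tissue pair and 9 and 31 in the miR-21 pair. In one fit over 12 libraries it called 1988 and 2012 in the tissue pair, 18 and 1 in the Ad pair and 0 and 1 in the miR-21 pair. Of the values of the 10 genes in the 3 pairs, 91 of 110 alternatives kept direction and call in the tissue pair, 84 of 100 in the Ad pair and 91 of 100 in the miR-21 pair. For a gene not called at first, as for all 10 in the miR-21 pair, keeping the call means staying uncalled.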
